A study of Mus musculus with 18 samples.

Results

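The genes of mitochondrial ribosomal proteins were taken by name, as every gene whose symbol starts with *Mrpl* or *Mrps* followed by a digit. They numbered 76 of the 9866 genes that were listed in at least 1 of 2 tables of gene expression, with 75 of 9435 genes in the knockdown table and 76 of 9472 in the overexpression table, where *Mrps18c* was the member listed alone. RefSeq (GRCm38.p6) holds 78 protein-coding genes of these names, and the other 2, *Mrpl53* and *Mrps34*, were in neither table. The tables list genes past a minimum of expression, and each gene was at 5 or more in at least 9 of the 12 knockdown libraries and in all 6 overexpression libraries, so the members described here are those that passed it. RNA was sequenced from primary mouse embryonic fibroblasts (MEFs) of male embryos that carry *Collagen-OKSM* and *M2rtta*, so that doxycycline switches on OCT4, SOX2, KLF4, and MYC. In the knockdown dataset, non-infected MEFs at day 0 (NI) were compared with cells at day 12 of doxycycline that had been infected at day 0 with lentivirus for a scrambled shRNA (shSCR), for either of 2 shRNAs against *Cpsf3* (shCPSF3#1 and shCPSF3#2), or for either of 2 against *Hnrnpul1* (shUL1#1 and shUL1#2). In the overexpression dataset, NI cells at day 0 were compared with cells at day 12 that had received retrovirus with no insert (Empty) or with T7-tagged TIA1 (T7-TIA1). Each of the 9 groups had 2 libraries, and the day of shUL1#2 and of the overexpression NI libraries was taken from their titles, since another field of their labels gives the other day. Infected cells were sorted for GFP at day 2 and grown on irradiated feeder MEFs that were harvested with them, so RNA of feeders can be in every day-12 library and in no NI library.

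The mitochondrial ribosome makes the few proteins encoded in mitochondrial DNA, all of them subunits of the respiratory chain and the ATP synthase. Its own proteins are encoded in the nucleus, made in the cytosol, and imported, then assembled on mitochondrial rRNA into a large subunit, which forms peptide bonds, and a small subunit, which decodes the mRNA. Part of these proteins have counterparts in bacterial ribosomes, and the rest are particular to mitochondria. Reprogramming of fibroblasts is known to be accompanied by a shift of metabolism from respiration towards glycolysis.

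The reads behind the listed genes were even, between 98882289 and 109047542 per library if the smallest step between values stands for 1 read. *Cpsf3* was lower in shCPSF3 than in shSCR cells (*limma*, log2 difference −1.0, adjusted p = 0.0207). It was at 38.64 and 49.99 in shCPSF3#1 and 42.4 and 77.1 in shCPSF3#2, against 86.7 and 117.9 in shSCR libraries. The second shCPSF3#2 library was thus the least depleted and lay near the lower shSCR library. *Hnrnpul1* was lower in shUL1 than in shSCR cells (*limma*, log2 difference −1.52, adjusted p = 0.0101). It was at 38.7 to 85.8 in shUL1 and 156.4 and 185.2 in shSCR libraries. *Tia1* was at 612.8 and 469.2 in T7-TIA1 against 85.6 and 77.0 in Empty libraries (*limma*, log2 difference 2.71, adjusted p = 0.222). The summed level of 13 fibroblast markers, none of which was at 0 in any library, lay at 21304 to 23484 in knockdown NI, 6148 to 6965 in shSCR, 15511 to 25161 in shCPSF3, 13427 to 29029 in shUL1, 23975 to 45207 in overexpression NI, 5408 to 6258 in Empty, and 3649 to 4207 in T7-TIA1 libraries. Of 12 markers of pluripotency, 0 were listed in either table, and 4 of 10 epithelial markers were listed in the knockdown table, with sums of 51.2 to 64.3 in NI and 413.0 to 694.7 in shSCR libraries. The libraries are bulk RNA, so fewer cells of one type and less RNA per cell cannot be told apart, and the part of feeder RNA in the results was not tested.

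Taken as a group, the members were low at day 12 in the knockdown dataset and not in the overexpression dataset. Their summed level, in CPM scaled per library by the authors, was 2916 and 2815 in the 2 knockdown NI libraries. It was 2241 and 2831 with shSCR, 1976 and 2117 with shCPSF3#1, 2046 and 2747 with shCPSF3#2, 2034 and 2572 with shUL1#1, and 2134 and 2498 with shUL1#2. Only the second shSCR library reached the range of the NI libraries, and the 8 libraries of the knockdown of either factor were below both. In the overexpression table the sum was 2945 and 2456 in NI, 2973 and 2950 in Empty, and 3059 and 3033 in T7-TIA1 libraries. The day-12 libraries thus lay above both NI libraries, but the Empty libraries only narrowly above the first, and the NI libraries were far apart. The group means were 2866 ± 71.5 (SD, n = 2) for knockdown NI, 2536 ± 418 for shSCR, 2047 ± 100.2 for shCPSF3#1, 2396 ± 495 for shCPSF3#2, 2303 ± 380 for shUL1#1, and 2316 ± 257 for shUL1#2. They were 2701 ± 346 for overexpression NI, 2962 ± 16.4 for Empty, and 3046 ± 18.3 for T7-TIA1. The largest share of the listed expression that the members held in any library was 0.319%, in the second T7-TIA1 library, and the smallest was 0.179%, in the first shCPSF3#1 library. The 2 tables were scaled separately, so their levels are set side by side and not tested against each other.

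**Figure D1:**
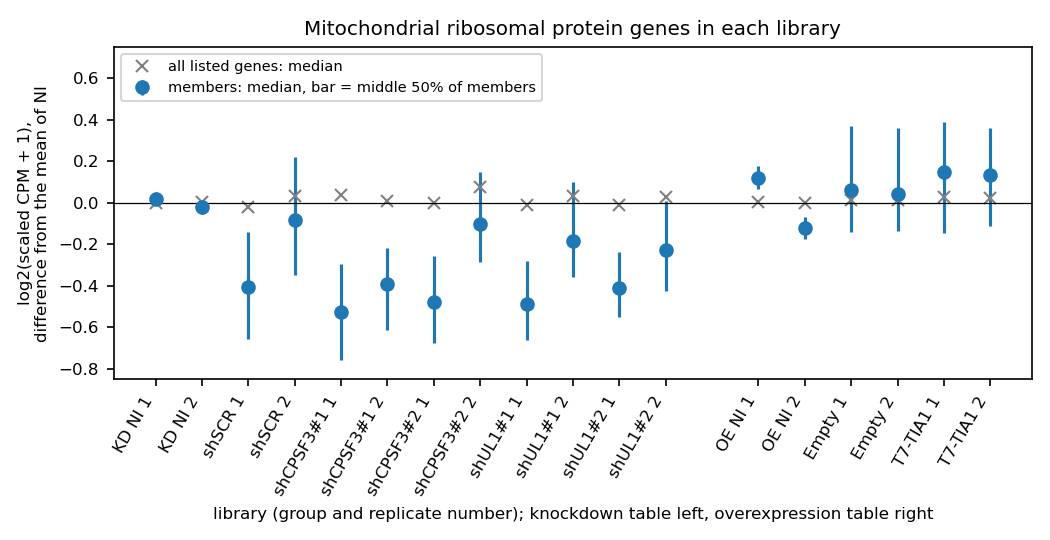
Median over the members (filled points, with bars for the middle 50% of members) and over all listed genes (crosses) of log2(scaled CPM + 1) in each of 18 libraries, as the difference from the mean of the 2 NI libraries of the same table. The member medians reach −0.53 in the first shCPSF3#1 library and 0.15 in the first T7-TIA1 library, while the medians over all genes stay between −0.02 and 0.07.

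The 2 libraries of a group differed from one another in a direction that the members shared. In shSCR cells, 71 of 75 members were higher in replicate 2 than in replicate 1, with a median gap of 0.30 on the log2 scale, whereas 55.7% of all listed genes were higher. The members higher in replicate 2 numbered 53 with shCPSF3#1, 69 with shCPSF3#2, 69 with shUL1#1, and 70 with shUL1#2, with median gaps of 0.13, 0.38, 0.29, and 0.20, against 28 of 75 in knockdown NI. In all 5 day-12 knockdown groups at once, 49 of 75 members (65.3%) were higher in replicate 2 and 0 were lower, against 30.6% of all genes higher. The gap was largest for *Mrpl15*, a protein of the large subunit with a bacterial counterpart, at 1.67-fold as a mean over the 5 groups (1.32- to 1.98-fold by group). *Mrpl47*, another large-subunit protein, followed at 1.60-fold, *Mrps24* at 1.55-fold, *Mrps5* at 1.51-fold, and *Mrpl42* at 1.45-fold. The group means of these 5 genes at day 12 thus stand for libraries that were far apart. The overexpression NI libraries differed the other way, with 7 of 76 members higher in replicate 2 and a median gap of −0.24, while 42 and 36 of 76 members were higher in replicate 2 of Empty and T7-TIA1.

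Markers of dividing cells had the same order within the day-12 knockdown groups. The summed level of 8 such genes was 1030 and 2007 in shSCR, 287.8 and 619.3 in shCPSF3#1, 659.8 and 1800 in shCPSF3#2, 639.0 and 1536 in shUL1#1, and 786.6 and 1429 in shUL1#2. It was 2033 and 1388 in overexpression NI, 2094 and 2384 in knockdown NI, 2108 and 1864 in Empty, and 1869 and 1803 in T7-TIA1 libraries. In each of the 5 day-12 knockdown groups and in overexpression NI, the library with the higher sum of these markers was therefore also that with the higher sum of the members. Knockdown NI had the opposite order, with 2916 and 2815 for the members. Cytosolic ribosomal protein genes had the same order, at 63594 and 81106 in shSCR and 56931 and 50998 in overexpression NI. Fibroblast markers had the opposite order in overexpression NI (23975 and 45207) and in 4 of the 5 day-12 knockdown groups, with shCPSF3#1 (21637 and 25161) as the exception. The epithelial markers listed in the knockdown table were also lower in replicate 2 in shSCR (694.7 and 413.0) and shCPSF3#2 (284.7 and 73.4). The same held in shUL1#1 (314.5 and 108.6) and shUL1#2 (167.1 and 115.2), and not in shCPSF3#1 (55.8 and 78.9). The part of all these markers in the difference between replicates was not tested.

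The comparison of shSCR with NI asks how the members change when MEFs are reprogrammed for 12 days. More members fell than rose: 18 of 75 fell and 3 rose at an adjusted p under 0.05 (*limma* on log2(scaled CPM + 1), Benjamini-Hochberg over all listed genes), whereas 22% of all genes fell and 22.5% rose. The median log2 difference was −0.24 over the members and 0.00 over all genes, with 55 of 75 members negative. As shares, 24% of the members fell and 4.0% rose. With each library scaled to the same sum, 11 members fell (16.3% of all genes), and the medians were −0.11 over the members and 0.13 over all genes. With the replicate number as a block, 32 fell and 8 rose (29.6% and 29.9% of all genes), although NI did not share the deviations of same-numbered libraries.

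*Mrpl20*, whose bacterial counterpart takes part in assembling the large subunit, fell most. It was at 87.8 and 84.4 scaled CPM in NI and at 27.3 and 34.8 in shSCR libraries. The other day-12 knockdown libraries lay between the NI and the shSCR values, at 39.9 to 51.3. The log2 difference between shSCR and NI was −1.45 ± 0.14 (SE, *limma*, adjusted p = 0.000179). *Mrps6*, a small-subunit protein with a bacterial counterpart, was at 42.2 and 40.9 in NI and 17.1 and 16.8 in shSCR libraries (−1.24 ± 0.17, *limma*, adjusted p = 0.000863). The level of *Mrps6* in shSCR was 0.423 of that in NI, and its replicates were close together in both groups. *Mrpl12* encodes the protein of the stalk, on which translation factors land, and was at 27 and 24.1 in NI and 11.1 and 14.8 in shSCR libraries (−0.94 ± 0.27, *limma*, adjusted p = 0.0246). *Mrps25*, a small-subunit protein particular to mitochondria, was at 42.3 and 40.6 in NI and 18 and 25.4 in shSCR libraries (−0.92 ± 0.19, *limma*, adjusted p = 0.00584). *Mrps7*, which binds the rRNA of the small subunit in its head, was at 63.9 and 60.6 in NI and 32.5 and 36.3 in shSCR libraries (−0.84 ± 0.12, *limma*, adjusted p = 0.000864). None of these 5 genes had overlapping libraries. The other 13 that fell were *Mrpl54*, *Mrps22*, *Mrpl52*, *Mrps26*, *Mrpl3*, *Mrpl41*, *Mrps21*, *Mrps23*, *Mrpl27*, *Mrps11*, *Mrps15*, *Mrpl32*, and *Mrps17*, with log2 differences of −0.80 to −0.37.

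The 3 members that rose were of the large subunit. *Mrpl23*, whose bacterial counterpart sits at the exit of the tunnel for the new peptide, was at 16.7 and 16.9 in NI and 29.6 and 35.6 in shSCR libraries (0.91 ± 0.15, *limma*, adjusted p = 0.00183). *Mrpl24*, also next to the tunnel in bacteria, was at 30.2 and 30.6 in NI and 52.4 and 64.5 in shSCR libraries (0.91 ± 0.17, *limma*, adjusted p = 0.00389). *Mrpl45*, which is particular to mitochondria and anchors the ribosome to the inner membrane, was at 60.3 and 61.3 in NI and 103.0 and 113.6 in shSCR libraries (0.82 ± 0.23, *limma*, adjusted p = 0.0199). Of 24 small-subunit members, 0 rose and 10 fell. The count of falling members was 11 without NI replicate 1, without NI replicate 2, or without shSCR replicate 1 (13.2%, 13.7%, and 17.3% of all genes), and the median went to −0.08 without shSCR replicate 1 and to −0.40 without replicate 2. Of the 21 called members, 13 kept their call under every setting tried, among them *Mrpl20*, *Mrps6*, *Mrps25*, *Mrps7*, *Mrpl23*, and *Mrpl24*.

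**Figure D2:**
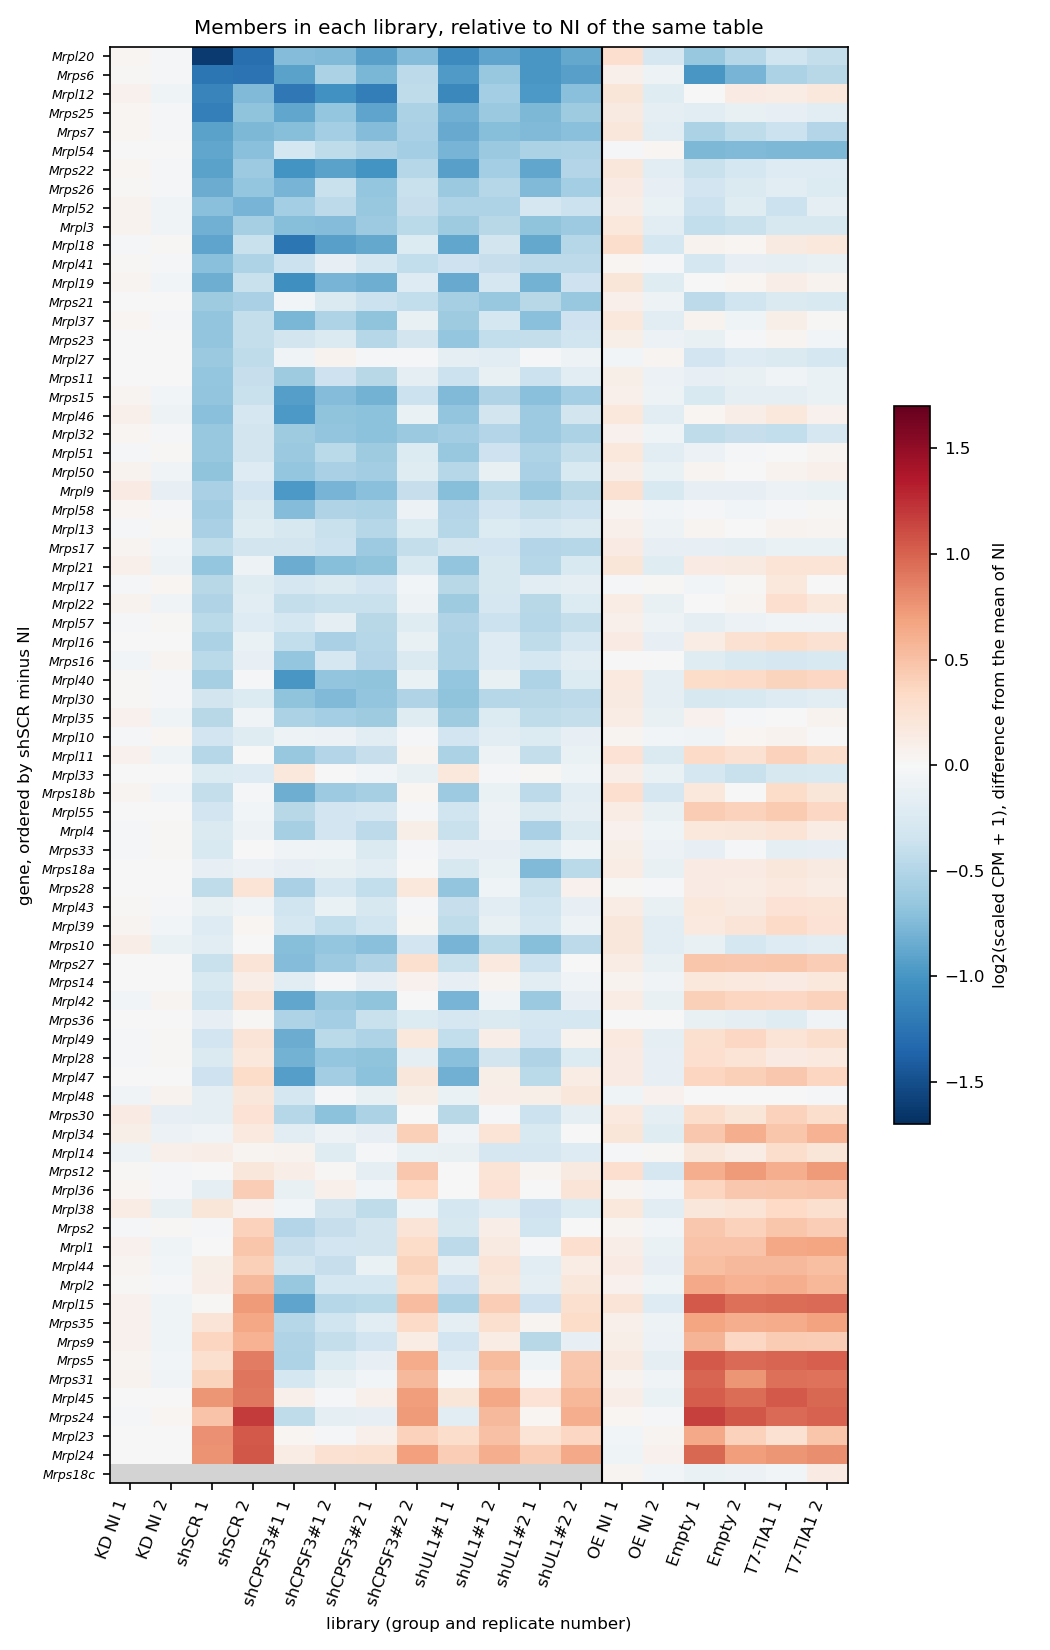
Each member (rows, ordered by the difference between shSCR and NI) in each library (columns), as log2(scaled CPM + 1) minus the mean of the 2 NI libraries of its table, with blue for lower and red for higher values and grey for *Mrps18c*, which was not listed in the knockdown table. Among the top rows, *Mrpl20*, *Mrps6*, *Mrps7*, and *Mrpl54* are blue at day 12 in both tables, whereas *Mrpl12* is blue at day 12 in the knockdown table and near white or pale red in Empty and T7-TIA1. *Mrpl24*, *Mrpl23*, and *Mrpl45*, near the bottom, are red in shSCR, Empty, and T7-TIA1 and paler in most shCPSF3 and shUL1 libraries.

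In the overexpression dataset, the Empty cells give a second comparison of day 12 with day 0 that shares no library with the first. Here 19 of 76 members rose and 5 fell, where 22.8% of all genes rose and 23.6% fell, and the median was 0.06 over the members and 0.01 over all genes. *Mrps24*, which corresponds to a bacterial protein at the entry of the mRNA, rose from 19.8 and 18.9 to 44.4 and 41.1 scaled CPM (1.10 ± 0.11, *limma*, adjusted p = 0.0016). *Mrps5*, from the same region of the small subunit, rose from 43.6 and 35.4 to 81.9 and 77.7 (1.00 ± 0.13, *limma*, adjusted p = 0.00319). *Mrpl45* rose from 64.0 and 54.1 to 121.4 and 114.5 (0.99 ± 0.12, *limma*, adjusted p = 0.00262). The folds of these 3 genes were 2.15, 2.00, and 1.99. *Mrpl15* rose from 68.3 and 49.7 to 121.4 and 112.1 (0.99 ± 0.16, *limma*, adjusted p = 0.00658), and *Mrps31*, particular to mitochondria, from 22.3 and 20.3 to 43.4 and 36.6 (0.87 ± 0.13, *limma*, adjusted p = 0.00447). *Mrps12*, a protein of the decoding centre, rose from 26.2 and 17.4 to 33.3 and 36 (0.67 ± 0.20, *limma*, adjusted p = 0.0388). The 13 other members that rose had differences of 0.39 to 0.84, with *Mrpl24* as the largest.

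*Mrps6* and *Mrpl54* again fell. *Mrps6* went from 55.5 and 48.7 to 25.6 and 29.5 (−0.89 ± 0.13, *limma*, adjusted p = 0.00415), and *Mrpl54*, a large-subunit protein particular to mitochondria, from 34.3 and 36.2 to 20.2 and 20.6 (−0.76 ± 0.10, *limma*, adjusted p = 0.00375). *Mrps7*, *Mrpl32*, and *Mrps21* fell by 0.49, 0.41, and 0.39 on the log2 scale. *Mrpl20* was at 93.2 and 62.5 in NI and 48.5 and 54.3 in Empty libraries (−0.56 ± 0.20, *limma*, adjusted p = 0.0643). Its libraries did not overlap, but the NI libraries were far apart. The counts rest on the NI libraries, which differed from each other as described above: without NI replicate 1, 32 members rose and 4 fell (31.8% and 31.3% of all genes), and without NI replicate 2, 17 rose and 17 fell (31.6% and 31.2%). Without Empty replicate 1, 5 rose and 2 fell (7.47% and 8.08%), and without Empty replicate 2, 7 rose and 2 fell (11.2% and 12.3%). Without either T7-TIA1 library, 8 rose and 2 fell (15.8% and 16.6%). The median was 0.20 without NI replicate 1 and −0.068 without NI replicate 2. With the replicate number as a block, 17 rose and 2 fell, namely *Mrpl54* and *Mrps6* (22.8% and 23.6% of all genes). Of the 24 calls, 7 held under every setting tried: *Mrpl24*, *Mrpl45*, *Mrps24*, *Mrps31*, and *Mrps5* among those that rose, and *Mrpl54* and *Mrps6* among those that fell.

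Set side by side, the 2 control comparisons put the members in a like order but at a different height. Across the 75 members of both tables, the 2 log2 differences had r = 0.864 and rho = 0.838, and across all 9041 genes of both tables r = 0.846 and rho = 0.805, as a description over genes that share their libraries. The sign was the same for 50 of 75 members (66.7%) and for 80.6% of all genes. Lower in every day-12 control library than in every NI library of both tables were 19 members (29.2% of all genes), among them *Mrpl20*, *Mrpl27*, *Mrpl32*, *Mrpl54*, *Mrps6*, *Mrps7*, and *Mrps21*. Higher in both were 10 members (26.7% of all genes), namely *Mrpl2*, *Mrpl23*, *Mrpl24*, *Mrpl44*, *Mrpl45*, *Mrps5*, *Mrps9*, *Mrps24*, *Mrps31*, and *Mrps35*. A further 5, *Mrpl4*, *Mrpl40*, *Mrpl43*, *Mrpl55*, and *Mrps18a*, were lower in shSCR and higher in Empty with no overlap (1.58% of all genes), and 0 had the opposite pattern.

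**Figure D3:**
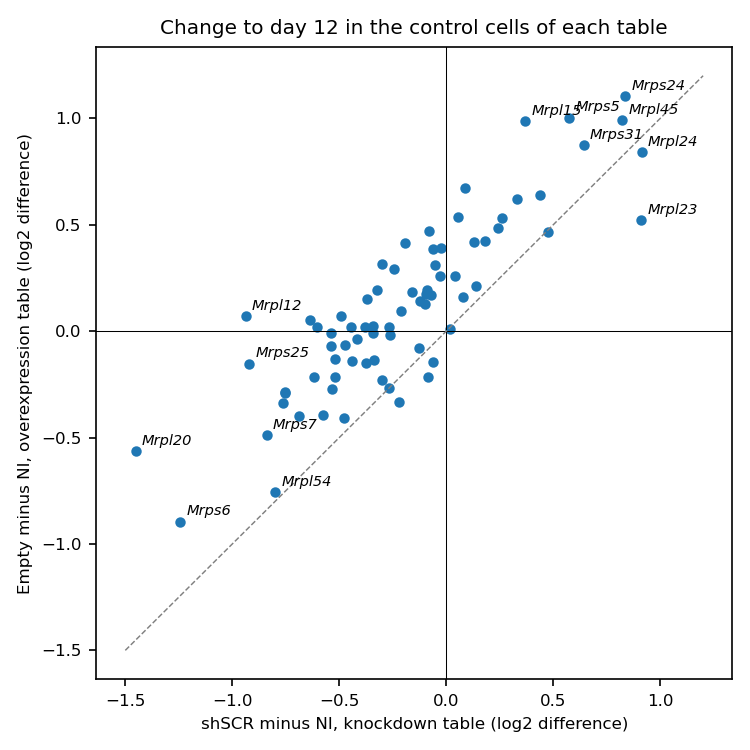
Each point is 1 of the 75 members in both tables, with the log2 difference of shSCR minus NI (x axis, knockdown table) against Empty minus NI (y axis, overexpression table) and a dashed line where they are equal. Of the 75 points, 68 lie above the line: *Mrpl15* is at 0.37 and 0.99, *Mrps5* at 0.57 and 1.00, and *Mrpl20* at −1.45 and −0.56, while *Mrpl23* lies below it at 0.91 and 0.52.

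The knockdown of *Cpsf3*, which encodes the endonuclease that cleaves pre-mRNAs at their 3′ ends, was compared with shSCR at day 12 as the mean of its 2 shRNAs. Of 75 members, 6 fell and 4 rose, against 9.35% and 16.7% of all genes, and the median difference was −0.12 over the members and 0.03 over all genes. *Mrpl23* was at 29.6 and 35.6 in shSCR, at 17.1 and 16.4 in shCPSF3#1, and at 17.8 and 22.4 in shCPSF3#2 libraries (−0.79 ± 0.13, *limma*, adjusted p = 0.00563). *Mrpl24* was at 52.4 and 64.5 in shSCR, at 33.2 and 36.6 in shCPSF3#1, and at 36.9 and 49.9 in shCPSF3#2 libraries (−0.58 ± 0.15, *limma*, adjusted p = 0.0276). Both genes thus stood nearer to the NI level with the knockdown than with shSCR, and their groups did not overlap. *Mrps9*, a small-subunit protein with a bacterial counterpart, was at 46.5 and 54.8 in shSCR, at 24.9 and 26.9 in shCPSF3#1, and at 28.6 and 39.3 in shCPSF3#2 libraries (−0.75 ± 0.18, *limma*, adjusted p = 0.0211). *Mrps10* and *Mrpl30* fell by 0.52 and 0.39 on the log2 scale. *Mrps36*, which is also known as a subunit of the oxoglutarate dehydrogenase complex, was at 11.7 and 13.2 in shSCR, at 8.8 and 8.4 in shCPSF3#1, and at 9.9 and 11 in shCPSF3#2 libraries and fell by 0.36.

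The 4 that rose with the knockdown are among those that fell from NI to shSCR. *Mrpl20* was at 27.3 and 34.8 in shSCR, at 51.1 and 50.6 in shCPSF3#1, and at 45.0 and 51.3 in shCPSF3#2 libraries (0.66 ± 0.12, *limma*, adjusted p = 0.0085). *Mrps6* was at 17.1 and 16.8 in shSCR, at 21.7 and 28.4 in shCPSF3#1, and at 23.9 and 30.4 in shCPSF3#2 libraries (0.58 ± 0.15, *limma*, adjusted p = 0.0257). Both remained below NI in every library. *Mrpl27*, the counterpart of a bacterial protein near the site of peptide bond formation, was at 22.8 and 23.1 in NI, 14.5 and 16.7 in shSCR, 21.9 and 24 in shCPSF3#1, and 22.7 and 22.3 in shCPSF3#2 libraries (0.52 ± 0.09, *limma*, adjusted p = 0.00747). *Mrpl54* rose by 0.34 ± 0.10 (*limma*, adjusted p = 0.0356). This comparison and that of shSCR with NI share the shSCR libraries, so values that are low in shSCR favour both a fall from NI and a rise with the knockdown.

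With the replicate number as a block, 16 members fell and 6 rose with the *Cpsf3* knockdown (22.6% and 27.2% of all genes), and with the block on day-12 libraries alone, chosen after seeing the data, 25 fell and 7 rose (27.6% and 31.6%). Without shSCR replicate 2, 0 fell (1.47% of all genes), without replicate 1 or 2 of shCPSF3#1, 3 (6.60% and 6.48%), without shCPSF3#2 replicate 1, 1 (5.10%), and without shCPSF3#2 replicate 2, 13 (14.8%), and of the 10 calls, 0 held under every setting tried. The median over the members was −0.29 without shSCR replicate 1 and 0.05, of the opposite sign, without shSCR replicate 2. The second shCPSF3#2 library had the highest *Cpsf3* level of the shCPSF3 libraries (77.1) and the highest sum of the members (2747). The part of the weaker depletion in this was not tested. Of 13 fibroblast markers, 8 rose with the knockdown of *Cpsf3* and 0 fell (median log2 difference 1.15), and the 4 listed epithelial markers fell (median −2.27). Of the 8 cell-division markers, 0 passed the test and 7 fell with the replicate block (median −1.21), with sums of 287.8 to 1800 against 1030 and 2007 in shSCR. The part of these in the members' values was not tested.

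The knockdown of *Hnrnpul1*, which encodes an RNA-binding protein of the hnRNP U family, gave 2 members that rose and 1 that fell, against 7.31% and 3.15% of all genes, with a median of −0.06 over the members and 0.00 over all genes. *Mrpl27* was at 14.5 and 16.7 in shSCR, 20.4 and 20.2 in shUL1#1, and 22.4 and 21.6 in shUL1#2 libraries (0.42 ± 0.09, *limma*, adjusted p = 0.0293). *Mrpl20* was at 39.9 and 45.9 in shUL1#1 and at 42.8 and 46.5 in shUL1#2 libraries (0.49 ± 0.12, *limma*, adjusted p = 0.042). *Mrpl23* was at 20.8 and 24.2 in shUL1#1 and at 19.9 and 21.6 in shUL1#2 libraries (−0.57 ± 0.13, *limma*, adjusted p = 0.0316). None of the 3 genes had a library of either shRNA that overlapped with shSCR, and these are genes that passed the test with the *Cpsf3* knockdown too, against the same shSCR libraries. With the replicate block, 3 rose and 6 fell (16.5% and 12.8% of all genes), with the block on day-12 libraries alone, 6 rose and 17 fell (22.6% and 19.5%), and without either library of NI or of shSCR, 0 did in either direction (1.24% to 4.46% of all genes rose and 0.435% to 1.55% fell). The median over the members was 0.11 without shSCR replicate 2 and 0.02 without shUL1#1 replicate 1, so its sign rests on single libraries. Of 13 fibroblast markers, 6 rose and 0 fell (median log2 difference 0.93). The 4 listed epithelial markers were lower in every shUL1 library than in shSCR (median −1.51), and 0 of them passed the test, whereas 3 fell with the replicate block. The median of the cell-division markers was −0.52, with 0 of 8 passing and 2 falling with the block. Their part in the members' values was not tested.

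Against NI instead of shSCR, more members fell than rose with both knockdowns. With shCPSF3, 27 of 75 fell and 0 rose, where 19.9% of all genes fell and 25.7% rose, and the median was −0.37. With shUL1, 23 fell and 1 rose, where 19.4% of all genes fell and 23.5% rose, and the median was −0.31. *Mrpl12* fell by 0.97 and 0.84 on the log2 scale with shCPSF3 and shUL1, as it did with shSCR. *Mrpl24* was the gene that rose with shUL1, by 0.53. The knockdowns of the 2 factors did not differ in any member at an adjusted p under 0.05 (0.0424% of all genes, 4 genes), with log2 differences of −0.28 to 0.31 and 2 members at an unadjusted p under 0.05. The 2 shRNAs of *Cpsf3* differed in 0 members (0.0212% of all genes), with differences of −0.72 to 0.25 and 60 of 75 members lower with shCPSF3#1, and the 2 of *Hnrnpul1* in 0 members (0.0% of all genes), with differences of −0.27 to 0.41. For each pair of shRNAs, 1 member was at an unadjusted p under 0.05. With the replicate block, 0 members passed between the factors or between the shRNAs of either. Of all genes, 0.445% were then higher and 0.297% lower with shCPSF3 than with shUL1. Between shCPSF3#1 and shCPSF3#2, 1.62% were higher and 2.69% lower, and between the shRNAs of *Hnrnpul1* 0.0% differed.

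**Figure D4:**
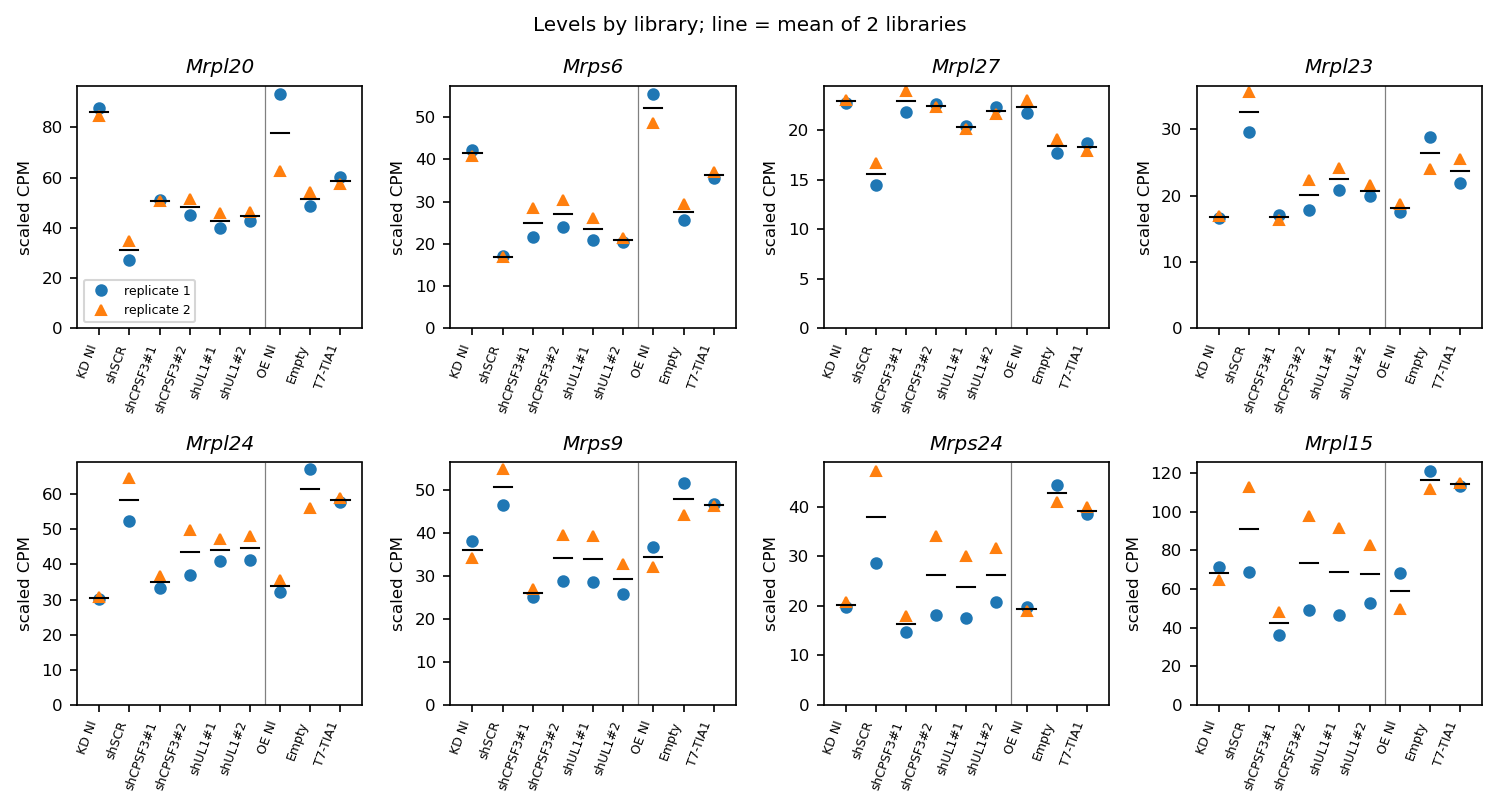
Scaled CPM of 8 members in every library, with circles for replicate 1, triangles for replicate 2, lines for the mean of 2 libraries, and a vertical line between the knockdown and the overexpression groups. *Mrpl20*, *Mrps6*, and *Mrpl27* are lowest in shSCR, *Mrpl23*, *Mrpl24*, and *Mrps9* are highest in shSCR within the knockdown groups, and *Mrps24* and *Mrpl15* show replicate 2 above replicate 1 in all 5 day-12 knockdown groups.

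T7-TIA1 was compared with Empty at day 12, and 0 of 76 members and 0.0% of all genes passed the test (*limma*). At an unadjusted p under 0.05 there were 1 member and 393 genes. The log2 differences of the members ran from −0.15 to 0.39, with 53 positive and 23 negative and a median of 0.05. *Mrps6* was at 25.6 and 29.5 in Empty and 35.6 and 37.1 in T7-TIA1 libraries, with no overlap (0.39 ± 0.13, *limma*, adjusted p = 0.999). *Mrpl22*, whose bacterial counterpart lines the peptide tunnel, was at 27.1 and 27.8 in Empty and 33 and 30.6 in T7-TIA1 libraries (0.20 ± 0.13), and *Mrpl23* at 28.9 and 24 and at 21.9 and 25.5 (−0.15 ± 0.14). *Mrps24* was at 44.4 and 41.1 and at 38.6 and 39.9 (−0.12 ± 0.11). Against NI, 16 members rose and 2 fell with T7-TIA1, where 22.3% of all genes rose and 22.4% fell.

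The members were also counted by their place in the ribosome, and the subunits were not tested against each other. From NI to shSCR, where 22.5% of all genes rose and 22% fell, 3 of 50 large-subunit members rose and 8 fell (median −0.27), and 0 of 24 small-subunit members rose and 10 fell (median −0.17). From NI to Empty, where 22.8% of all genes rose and 23.6% fell, 11 of 50 rose and 2 fell in the large subunit (median 0.11), and 8 of 25 rose and 3 fell in the small subunit (median −0.08). The large subunit was split mostly by gene number. Members up to *Mrpl36*, with *Mrpl55*, were taken as those with a bacterial counterpart. They gave 2 rises and 5 falls of 29 from NI to shSCR and 8 and 1 from NI to Empty. The rest, most of them particular to mitochondria, gave 1 and 3 of 21 and 3 and 1. In the small subunit, those with a bacterial counterpart gave 0 rises and 6 falls of 15 and then 5 and 3 of 16, and those particular to mitochondria 0 and 4 of 9 and then 3 and 0. Of the 3 paralogs of bacterial S18, *Mrps18a* was at 34.7 and 35.1 in NI and 31.5 and 32.4 in shSCR libraries, *Mrps18b* at 26.1 and 24.2 and at 18.8 and 24.8, and neither passed the test. *Mrps18c* was at 10.8 and 10.1 in NI, 9.6 and 9.7 in Empty, and 10.1 and 11.6 in T7-TIA1 libraries. The 5 highest means in the knockdown table were those of *Mrpl45*, *Mrpl15*, *Mrpl51*, *Mrpl17*, and *Mrpl39*, on a scale that is not corrected for the length of the gene and does not rank the number of transcripts.

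Other genes of mitochondrial translation were taken from lists, whose counts stand beside 22.5% of all genes rising and 22% falling from NI to shSCR and 22.8% and 23.6% from NI to Empty. Of 9 listed translation factors, *Tufm* and *Gfm1*, the elongation factors that bring in tRNA and move the ribosome along, fell from NI to shSCR by 0.60 and 0.49 on the log2 scale, and 0 rose. From NI to Empty, 3 of 10 rose, with *Gfm2*, which splits the subunits after termination, at 0.83. Factors that assemble the ribosome or modify its rRNA gave 3 rises and 1 fall of 17 and then 7 and 0 of 20. Among them *Ngrn* rose by 0.87 and 0.71 and *Mtg1*, a GTPase of large-subunit assembly, by 0.56 and 0.65 in the 2 comparisons, and *Noa1*, a GTPase of small-subunit assembly, fell by 0.69 in the first. Of the mitochondrial tRNA synthetases, 2 of 16 rose and 0 fell from NI to shSCR and 9 of 17 rose and 1 fell from NI to Empty, with *Vars2* at 1.18 and 1.06. With the knockdown of *Cpsf3*, 3 synthetases, 3 assembly factors, and *Dap3* (−0.45), the GTP-binding protein of the small subunit that is named outside the *Mrps* series, fell, and 1 assembly factor rose (9.35% of all genes fell and 16.7% rose). With the replicate block, 5 synthetases and 6 assembly factors fell (22.6% of all genes).

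Of 11 listed regulators of mitochondrial transcription and biogenesis, 1 rose and 2 fell from NI to shSCR (median 0.06), and 3 rose and 0 fell from NI to Empty (median 0.27, 10 of 11 positive). With the *Cpsf3* knockdown, 1 rose and 0 fell (median −0.26, 3 of 11 positive), and 1 rose and 3 fell with the replicate block. The shares of all genes are those given above. *Myc*, which is also part of the induced cassette, was lower in shSCR than in NI and higher in Empty than in NI (log2 differences −0.91 and 0.78, *limma*, adjusted p = 0.0192 and 0.0321). *Tfam*, which packages mitochondrial DNA and starts its transcription, rose in Empty by 0.79, and its difference in shSCR was 0.32 (adjusted p = 0.48). *Esrra*, a nuclear receptor that drives genes of oxidative metabolism, was the gene of this list that rose with the knockdown of *Cpsf3*, by 0.85, and of *Hnrnpul1*, by 0.57. The genes encoded in mitochondrial DNA were not among the listed genes. Of 84 cytosolic ribosomal protein genes, 22 rose and 1 fell from NI to shSCR (median 0.42), 34 rose and 0 fell from NI to Empty (median 0.38), and 72 fell and 0 rose with the *Cpsf3* knockdown (median −0.77). As a share, the 22 are close to the 22.5% of all genes that rose in shSCR. With the replicate block, 43 rose in shSCR and 22 in Empty (29.9% and 22.8% of all genes). More of them thus rose than fell in both control comparisons, whereas more members fell than rose in shSCR and more rose than fell in Empty, and the difference between these lists was not tested. Of 82 genes of the respiratory chain and ATP synthase, 8 rose and 15 fell from NI to shSCR, and 1 rose and 6 fell with the *Cpsf3* knockdown (7 and 16 with the replicate block). From NI to Empty, 12 of 81 rose and 2 fell. Both the rises and the falls in this list were a smaller share than over all genes in each of these. Over all genes, 22.5% rose and 22% fell in shSCR, and 22.8% and 23.6% in Empty. With the *Cpsf3* knockdown, 16.7% of all genes rose and 9.35% fell (27.2% and 22.6% with the block).

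The promoters of the members were searched for short motifs, and a link of these to the changes in level was not tested. Of the members, 68 had a promoter in RefSeq (GRCm38.p6), of 250 bases before and 50 after the start of the gene, searched on both strands. The ETS core CCGGAAG, the motif bound by GABPA and related factors, was in 25 of 68 members (36.8%) and in 9.93% of 27025 genes. The YY1 core AAGATGG was in 19.1% of members and 7.28% of genes, and the NRF1 core GCGCATG in 11.8% and 4.41%. The GC box GGGCGG was in 34 of 68 members and 38.2% of genes, and the E-box CACGTG in 7.35% and 8.09%. The members with an ETS core had a median log2 difference of −0.34 from NI to shSCR (24 genes) and those without it −0.09 (43 genes), and from NI to Empty −0.06 (25 genes) and 0.19 (43 genes). The ETS core had the widest such gap of the motifs searched. From NI to shSCR, members with and without the motif were at −0.30 and −0.24 for NRF1 and −0.13 and −0.27 for YY1. They were at −0.20 and −0.26 for the E-box and −0.21 and −0.27 for the GC box. This split was made over members only, and the gaps were not tested. A match of letters is no evidence of binding. Windows around the ETS core (capitals, on either strand) of 3 members that fell from NI to shSCR, on the forward strand, read as follows, at chr11:94653711-94653767, chr14:54426837-54426893, and chr2:130563718-130563756.
Mrpl27: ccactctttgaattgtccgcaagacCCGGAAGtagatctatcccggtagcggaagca
Mrpl52: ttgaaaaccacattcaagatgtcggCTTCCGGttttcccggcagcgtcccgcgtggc
Mrps26: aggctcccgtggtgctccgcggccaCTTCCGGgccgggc

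Splicing was read from inclusion and exclusion reads for 599 events of 76 member genes in the knockdown dataset and 504 events of 75 in the overexpression dataset, as percent spliced in (PSI), the share of transcripts that include a stretch of RNA. Between NI and shSCR, 59 events in 35 genes passed the test (*limma* on the log2 ratio of inclusion to exclusion reads, adjusted p under 0.05), or 9.85% of the member events, against 5.9% of all events. By a rule on PSI alone, a difference of at least 10 between means and 5 between the nearest libraries, 15 events in 9 genes changed (2.86% of all events). The counts were 19 and 4 with the *Cpsf3* knockdown (2.82% and 0.965% of all events) and 13 and 5 with the *Hnrnpul1* knockdown (1.35% and 0.812%). They were 1 and 4 for Empty against NI (1.05% and 2.1%) and 0 and 3 for T7-TIA1 against Empty (0.059% and 0.857%), where 18 member events and 7027 of all events had an unadjusted p under 0.05. Both sites of a pair of splice sites are counted as events and share their reads. The count between NI and shSCR fell when any library of NI or shSCR was left out. The share of all events in those fits is not given here, so the member share was not compared with it.

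The sequences of 3 regions that changed are given here in the direction of the gene, from the mm10 genome with GENCODE M21 transcripts. The first is the whole exon of *Mrps27* at chr13:99401270-99401392 (+ strand), of 123 bases, which is in the coding sequence of an annotated transcript. The second is the end of an exon of *Mrps33* at chr6:39805434-39805506 (− strand), where capitals mark the 53 bases that are added when the farther of 2 5′ splice sites is used, all within coding sequence. The third is from *Mrpl11* at chr19:4963646-4963689 (+ strand), where capitals mark the 24 bases added by a farther 5′ splice site.
Mrps27: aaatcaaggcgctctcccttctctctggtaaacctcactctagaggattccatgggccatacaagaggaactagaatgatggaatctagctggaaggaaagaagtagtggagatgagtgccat
Mrps33: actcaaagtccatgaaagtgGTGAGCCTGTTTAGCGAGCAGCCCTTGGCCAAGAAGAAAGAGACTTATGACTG
Mrpl11: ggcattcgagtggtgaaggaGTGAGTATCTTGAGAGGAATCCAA

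The *Mrps27* exon gave the largest change. *Mrps27* encodes a small-subunit protein particular to mitochondria. The PSI was 8.31 and 7.25 in NI and 33.3 and 34.9 in shSCR libraries (difference 26.3 PSI, *limma*, adjusted p = 2.08e-05). It was 6.25 and 6.88 in shCPSF3#1, 9.40 and 11.5 in shCPSF3#2, 10.5 and 10.7 in shUL1#1, and 8.35 and 13.1 in shUL1#2 libraries. Inclusion was therefore high in shSCR alone, and both knockdowns were lower than shSCR (−25.6 and −23.4 PSI, *limma*, adjusted p = 3.06e-05 and 0.000187). In the overexpression dataset it was 27.8 and 39.6 in NI, 46.9 and 37.8 in Empty, and 31.8 and 38.6 in T7-TIA1 libraries. There the exon was well included at day 0, and the groups overlapped. It was the 1 member event of 492 that differed between the NI libraries of the 2 datasets by the rule on PSI (0.738% of all events), and experiment and dataset cannot be told apart. The exon is of 123 bases, a multiple of 3, and the level of the gene as a whole was 23.9 and 24 in NI and 18.2 and 28 in shSCR libraries of the knockdown dataset.

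*Mrps33*, another small-subunit protein particular to mitochondria, used the farther 5′ splice site with a PSI of 42.5 and 40.1 in NI and 21.4 and 25.7 in shSCR libraries (−17.8 PSI, *limma*, adjusted p = 0.0128). It was 47.9 and 44.8 in shCPSF3#1, 43.3 and 46.0 in shCPSF3#2, 39.4 and 36 in shUL1#1, and 42.1 and 36.5 in shUL1#2 libraries, all far above shSCR and near NI (22 PSI for shCPSF3 and 14.9 for shUL1 against shSCR, *limma*, adjusted p = 0.00297 and 0.041). In the overexpression dataset the values were 50.4 and 43.8 in NI, 34.3 and 36.5 in Empty, and 49.1 and 43.6 in T7-TIA1 libraries. These differences, −11.6 for Empty against NI and 10.9 for T7-TIA1 against Empty, met the rule on PSI and not the test (*limma*, adjusted p = 0.32 and 0.849).

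*Mrpl11*, a protein at the base of the stalk, used its farther site at 15.7 and 18.5 PSI in NI and 4.91 and 5.63 in shSCR libraries (−11.8 PSI, *limma*, adjusted p = 0.000475). The knockdown libraries were at 10.3 to 15.4, between NI and shSCR. An exon of *Mrpl15* at chr1:4776410-4776801, of 392 bases, was at 81.7 and 79.8 in NI and 95.8 and 95.1 in shSCR libraries (14.7 PSI, *limma*, adjusted p = 2.43e-05), and both knockdowns lowered it (−8.75 and −9.60 PSI). In Empty it was at 92.7 and 86.5 against 80.5 and 79.7 in NI. An exon of *Mrpl24* at chr3:87919803-87919828, of 26 bases and in an untranslated region, was at 61.2 and 55.6 in NI and 40.2 and 38.5 in shSCR libraries (−19.1 PSI, *limma*, adjusted p = 0.0066). *Mrpl24* is thus a member whose level rose and whose splicing changed in the same comparison.

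**Figure D5:**
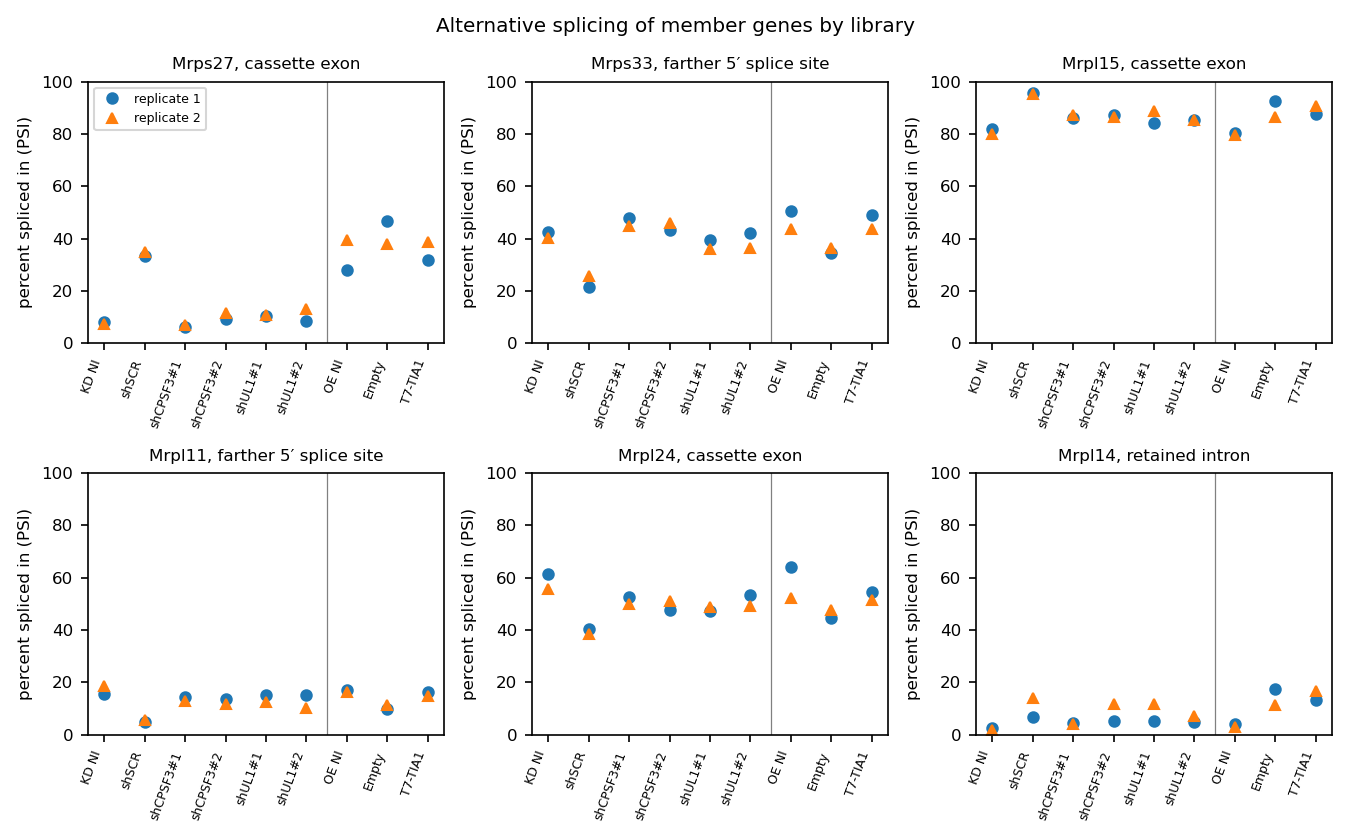
PSI of 6 events of member genes in every library (circles for replicate 1, triangles for replicate 2, with the knockdown groups left of the vertical line). The *Mrps27* exon is at 33.3 and 34.9 in shSCR and at or below 13.1 in the other knockdown groups, and the *Mrps33* farther site is lowest in shSCR.

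Retained introns gave 24 of the 59 called events between NI and shSCR, of 269 tested, and 23 of these 24 were higher in shSCR. Over all genes, 5.72% of the introns tested were called and 82.8% of the called ones were higher. The changes were mostly small: retention of an intron of *Mrps7* went from 0.48 and 0.48 to 2.17 and 3.09 PSI and of *Mrps15* from 1.21 and 1.46 to 5.29 and 4.33. *Mrps17* had the largest, from 40.3 and 32.8 to 57.0 and 54.2 (19.1 PSI, *limma*, adjusted p = 0.0089). The 73-base intron of *Mrpl52* at chr14:54426961-54427033 was the exception, at 13.9 and 10.9 in NI and 2.57 and 2.04 in shSCR libraries (−10.1 PSI, *limma*, adjusted p = 0.00117). A more retained intron was called in 17 of the 73 listed members with an intron tested (23.3%) and in 20.7% of all such genes. Of the 18 members whose level fell, 9 had one, namely *Mrpl20*, *Mrpl32*, *Mrpl41*, *Mrps6*, *Mrps7*, *Mrps11*, *Mrps15*, *Mrps17*, and *Mrps22*, and of the 55 others, 8 did (14.5%). Over all genes the shares were 32.3% of those that fell and 17.3% of the others, and the overlap was not tested. An intron of *Mrpl14* was the single member event called in Empty against NI, at 4.08 and 2.99 in NI and 17.6 and 11.5 in Empty libraries (11 PSI, *limma*, adjusted p = 0.0254), and it was at 2.63 and 1.99 in knockdown NI and 6.79 and 13.9 in shSCR libraries (8.05 PSI, *limma*, adjusted p = 0.0294).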

How the data were processed

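Expression and splicing were measured by stranded paired-end RNA-seq of polyA RNA in 18 libraries, 2 per group. The authors mapped reads to mm10 with *STAR* 2.7.1a, computed CPM with *edgeR* 3.16.5, and filtered on expression. The minimum coefficient of variation that their methods state for other datasets was not met by 36.9% of the genes in the knockdown table and 49.9% in the overexpression table. The deposited expression values are a signal, CPM relative to a library size scaled for each library, whereas the test was first planned for ordinary CPM. The authors quantified splicing with *vast-tools* and deposited PSI in percent, with a text per event and library that gives a coverage score and inclusion and exclusion reads. Differences in expression came from *limma* (3.58.1, run in R 4.3.3) applied to log2(value + 1), two-sided and with its trend option. Each table was fitted once with every group, with Benjamini-Hochberg correction across the whole table and a threshold of 0.05. Fold changes on this scale understate those of low genes. Events scored at least VLOW, which stands for 10 reads, in all libraries and with at least 10 inclusion and 10 exclusion reads were tested with weighted robust *limma* on log2((inclusion + 1)/(exclusion + 1)). Both procedures were tested on simulated data. Summaries used Python 3.11.15, NumPy 2.4.6, and pandas 2.3.3. The labels do not say whether the 2 libraries of a group are separate cultures, so p-values measure the spread between these libraries, and medians and counts over members carry no test. Deviations of same-numbered libraries from their group means had r of 0.674 to 0.949 across genes between day-12 knockdown groups and −0.127 to 0.0218 between knockdown NI and these, so in the knockdown dataset a fit with the replicate number as a block is given beside the main one for day-12 contrasts. In the overexpression dataset r was 0.171 to 0.308 over the 3 pairs of groups, and blocked counts of members are given for Empty against NI. The members and lists were chosen with earlier results of these data known. Named members were the 5 largest rises and falls past the threshold per comparison (where fewer than that pass, those, and where none does, the 2 largest each way), the 5 highest means, the 5 largest replicate gaps, the S18 paralogs, and the 5 largest splicing changes, and others were named to account for a count. Alternatives changed the pseudocount, scaling, low-value filter, replicate block, groups fitted, and PSI threshold, and left out each library in turn.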

Additional observations from a re-analysis of the deposited data

Results flagged for a closer look

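In 5 members, both shSCR libraries were below both NI libraries while both Empty libraries were above both NI libraries of their own table, and this difference between datasets was not tested. The log2 difference was −0.16 in shSCR and 0.18 in Empty for *Mrpl4*, −0.30 and 0.32 for *Mrpl40*, −0.10 and 0.17 for *Mrpl43*, −0.19 and 0.41 for *Mrpl55*, and −0.13 and 0.14 for *Mrps18a*. The levels of *Mrpl40* were 36.9 and 36.2 in NI and 24.3 and 35.6 in shSCR libraries, so the second shSCR library was close to NI. In the overexpression table they were 35.5 and 28.1 in NI and 39.3 and 39.8 in Empty libraries. Of the 5, *Mrpl55* in Empty passed the test across all genes.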

How the results depend on the processing

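No named gene that passed the test changed direction, but the median over the members changed sign on leaving out 1 library for shCPSF3, shUL1, and Empty. With the replicate block, rising and falling members numbered 8 and 32 for shSCR against NI (29.9% and 29.6% of all genes), where NI did not share the deviations of same-numbered libraries. In that fit 44 and 43 fell for shCPSF3 and shUL1 against NI (29.5% and 28.5%). Against shSCR, 16 fell for shCPSF3 and 6 for shUL1 (22.6% and 12.8%), and 2 fell in Empty (23.6%). The block gave 5 called splicing events in Empty, and the share of all events in that fit is not given here. With day-12 libraries alone, added after seeing the data, 7 rose and 25 fell for shCPSF3 (31.6% and 27.6% of all genes) and 6 and 17 for shUL1 (22.6% and 19.5%). Scaling to the same sum moved the median of all genes by 0.13 for shSCR and 0.18 for Empty against NI, and the members then gave 11 falls in shSCR (16.3% of all genes) with a median of −0.11, 2 rises for shCPSF3 (12.4%), 0 rises and 0 falls for shUL1 (6.21% and 2.65%), and 2 falls (16.4%) and a median of 0.24 in Empty. Relative to all genes the members stayed at −0.24 and 0.05. Of all called genes, 61.4% rather than 50.6% then rose in shSCR, 66.9% rather than 49.2% in Empty, and 55.5% rather than 64.1% for shCPSF3. Scaling to the same median gave 2 falls for shUL1 (3.96% of all genes), and 59.5% rather than 69.9% of called genes rising. With only the groups compared in the fit, shCPSF3 and shUL1 gave 0 rises and 0 falls (2.95% and 0.70%, and 1.31% and 0.22% of all genes), and Empty 8 rises and 2 falls (15.8% and 16.7%). A PSI threshold of 15 left 5 member events in shSCR, 3 for shCPSF3, 2 for shUL1, and 0 in Empty and T7-TIA1. The share of all events at this threshold is not given here, so these counts say nothing particular to the members. Leaving out 1 library gave, for shSCR against NI, 2 to 3 rises, 11 to 20 falls, a median of −0.40 to −0.08, and 13 to 64 splicing events. For shCPSF3 it gave 2 to 4, 0 to 13, −0.29 to 0.05, and 4 to 21, for shUL1 0 to 2, 0 to 2, −0.24 to 0.11, and 2 to 13, for Empty 5 to 32, 2 to 17, −0.068 to 0.20, and 0 to 5, and for T7-TIA1 0, 0, 0.04 to 0.05, and 0. Apart from T7-TIA1, the shares of all genes that rose or fell also moved with the library left out. The share of all events in these fits is not given here. The ranges of counts therefore say nothing particular to the members. A count test on reads recovered from the values was not run, since the values were not taken as counts. The cause of these changes was not tested beyond the fewer libraries of some fits.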
